A study of Arabidopsis thaliana with 10 samples.

Results

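LHCB4.1 (AT5G01530), LHCB4.2 (AT3G08940) and LHCB4.3 (AT2G40100) are the 3 Arabidopsis genes of the minor antenna protein CP29. They were followed here by every probe set that names 1 of them alone, which gave 1 probe set for each gene, 3 of the 22746 probe sets left after array controls were removed and 3 of 13356 genes that have a probe set naming them alone. The arrays measured leaves of 35S:PAP1 plants, which express PAP1, a MYB activator of anthocyanin genes, from the constitutive 35S promoter of a plant virus, and leaves of empty vector plants, both of Arabidopsis thaliana Columbia. Each line has 1 array, made from pooled leaf tissue, on each of days 1, 2, 7, 8 and 12, so that there are 10 arrays and no repeat of a line on a day. The empty vector arrays carry the label Hex, read as that control because the series names no other line.

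The labels give the day of each array, and its growth regime was read from the series text. The plants were first kept bright at 22 °C and 440 µmol m-2 s-1, taken here as day 1. They then spent 6 days warm and dim, at 30 °C by day and a light level of 150 on the same scale, which covers days 2 and 7. The last arrays, of days 8 and 12, were taken as cool and bright, at 15 °C and 440. Light, temperature and plant age change together in this design and cannot be told apart. The sources used here do not give the number of independent transformed lines or the hour of harvest. No probe set named the PAP1 locus alone (0), so the transgene itself was not checked. DFR, an anthocyanin enzyme gene, read 10.7 to 12.6 on the 35S:PAP1 arrays and 3.8 to 8.0 on the empty vector arrays.

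CP29 is a chlorophyll a/b binding protein that sits between the photosystem II core and its trimeric antenna. It passes excitation energy to the core, helps hold the antenna and core together, and takes part in the dissipation of excess light. LHCB4.1 and LHCB4.2 encode closely similar proteins, while the LHCB4.3 protein lacks part of the C-terminal end and its transcript is known to follow a different pattern of expression.

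All values are deposited log2 expression values with 1 decimal, and a difference of 1 on this scale is a factor of 2.0. Of 10 planned leaf markers 2 had a probe set of their own: RCA, Rubisco activase, read 13.6 to 13.8 and PRK, phosphoribulokinase of the Calvin cycle, 11.9 to 12.7. Of 5 root and 3 seed markers 2 and 1 had one: the root genes PYK10 and EXPA7 read 4.1 to 5.1 and 3.5 to 3.9 and the seed coat gene BAN 3.3 to 3.7. No planned flower or senescence marker had one. Some arrays stood apart in their controls. The 35S:PAP1 array of day 2 had a 25S ribosomal RNA value of 9.7, where the other 9 arrays had 4.7 to 6.7, and its actin probe sets differed by -2.5 (5′ minus 3′), beside -1.5 to -1.2 elsewhere. The day 7 arrays were low in the spiked poly-A controls, whose 3′ probe sets had a median of 3.95 in 35S:PAP1 and 3.8 in empty vector plants and of 6.9 to 7.5 on the other 8 arrays.

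The levels of LHCB4.3 made a deep trough over the warm dim days. On the 35S:PAP1 arrays it read 10.8, 8.2, 6.7, 9.7 and 10.9 on days 1, 2, 7, 8 and 12. On the empty vector arrays it read 11.0, 9.0, 7.7, 8.9 and 10.5 on the same days. Both lines were lowest on day 7 and within 0.5 of their day 1 level by day 12.

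LHCB4.2 was high on the warm dim days and had its trough on day 8. On the 35S:PAP1 arrays it read 11.9, 13.0, 12.4, 9.7 and 12.2 on days 1, 2, 7, 8 and 12. On the empty vector arrays it read 12.4, 13.1, 12.9, 9.6 and 12. Its highest array in each line was that of day 2, and the day 8 arrays lay at least 2.2 below every other array of their line.

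LHCB4.1 followed the course of LHCB4.2 with a smaller range. On the 35S:PAP1 arrays it read 13.5, 13.6, 13.4, 12.3 and 13.3 on days 1, 2, 7, 8 and 12. On the empty vector arrays it read 13.5, 13.6, 13.3, 12.1 and 13.2. Apart from day 8 the arrays of either line stayed within 0.4. The highest value of any probe set on an array was 13.8 to 14.2, so LHCB4.1 read close to the top of the scale, and whether its range was narrowed there was not tested.

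**Figure D1:**
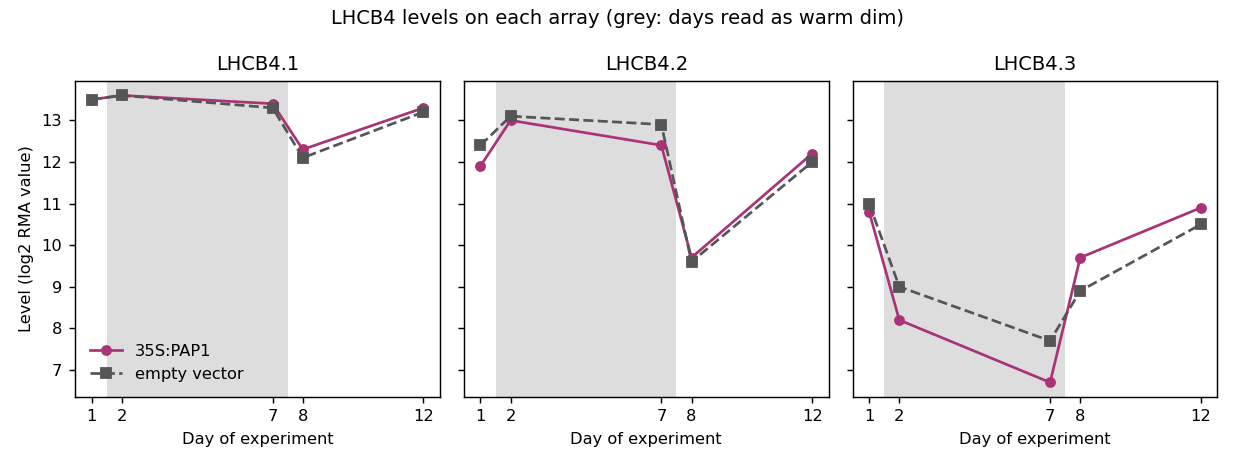
Level of LHCB4.1, LHCB4.2 and LHCB4.3 (log2 RMA value, 1 array per point) against day of the experiment in 35S:PAP1 (solid, circles) and empty vector (dashed, squares), with the days read as warm dim in grey. LHCB4.3 is lowest on day 7 in both lines (6.7 in 35S:PAP1, 7.7 in empty vector), whereas LHCB4.1 and LHCB4.2 are lowest on day 8.

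Day 2 was compared with day 1 for the first day of warm dim growth. LHCB4.3 fell and LHCB4.2 rose, with the same sign in each line, while LHCB4.1 did not pass the test. In pooled leaves fewer cells of a type and less RNA per cell cannot be told apart. LHCB4.3 gave -2.6 in 35S:PAP1 and -2.0 in empty vector plants. Over both lines its level averaged 8.6 on day 2, against 10.9 on day 1, a fall by 2.3 ± 0.41 on the log2 scale (SE, 4.92-fold, limma adjusted p = 0.0185 over all probe sets). LHCB4.2 gained 1.1 in 35S:PAP1 and 0.7 in empty vector plants, and its mean of 13.05 on day 2, against 12.15 on day 1, gave a rise of 0.9 ± 0.20 (1.87-fold, limma adjusted p = 0.0362). LHCB4.1 gave 0.1 in both lines (limma adjusted p = 0.704, 95% interval -0.19 to 0.39).

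Among all probe sets 4.44% were called higher and 5.5% lower on day 2, and of the 3 genes 1 was called in each direction. Both calls were lost where an array of day 1 or day 2 was left out. LHCB4.3 then gave between -2.70 (without the empty vector day 2 array, adjusted p = 0.0595) and -1.90 (without the 35S:PAP1 day 2 array, with its -2.5 actin difference, adjusted p = 0.188). LHCB4.2 gave 0.69 to 1.11, and its call was also lost without an array of day 8 or day 12, at an adjusted p of 0.0609 to 0.228 over all these fits.

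From day 2 to day 7, within the warm dim period, each of the 3 genes read lower on day 7 in both lines, and none passed the test. LHCB4.3 read 1.5 lower on day 7 in 35S:PAP1 and 1.3 lower in the empty vector. The fit gave -1.4 ± 0.41 (limma adjusted p = 0.214, 95% interval -2.35 to -0.45). LHCB4.2 gave -0.40 (adjusted p = 0.413) and LHCB4.1 -0.25 (adjusted p = 0.403). Without the 35S:PAP1 day 7 array LHCB4.3 gave -0.875 and LHCB4.2 -0.1875, and without the empty vector day 7 array -1.925 and -0.6125, none of them past the threshold. This comparison called 0.0747% of all probe sets.

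Day 7 set against day 1 gives the end of the warm dim period. LHCB4.3 averaged 7.2 on day 7, against 10.9 on day 1, and fell by 3.70 ± 0.41 on the log2 scale (13.0-fold, limma adjusted p = 0.00488). The change was -4.1 in 35S:PAP1 and -3.3 in empty vector plants. LHCB4.2 read 0.5 above day 1 in each line, which did not pass the test (adjusted p = 0.174, 95% interval 0.02 to 0.98). It was 0.2875 without either the 35S:PAP1 day 1 or the empty vector day 7 array. LHCB4.1 gave -0.15 (adjusted p = 0.506). Of all probe sets 5.23% were called lower, and 1 of the 3 genes. Without the empty vector day 1 array the fall of LHCB4.3 was -3.675 and its adjusted p = 0.0653. The low poly-A controls coincide with day 7 in both lines, and their part was not tested in any comparison that uses the day 7 arrays. The root marker PYK10 was 0.60 higher on day 7 than on day 1 (adjusted p = 0.0423) and EXPA7 gave -0.10 (adjusted p = 0.753), and their part was not tested either.

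The step from day 7 to day 8 crosses into cool bright growth, and here each of the 3 genes passed the test. LHCB4.2 fell in both lines to its lowest level. The 35S:PAP1 line changed by -2.7 and the empty vector by -3.3, and the mean was 9.65 on day 8, against 12.65 on day 7. The fall was 3.0 ± 0.20 on the log2 scale, an 8-fold difference (limma adjusted p = 0.000226). LHCB4.1 changed by -1.1 in 35S:PAP1 plants and by -1.2 in empty vector plants, and fell by 1.15 ± 0.12 (2.22-fold, limma adjusted p = 0.000979).

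LHCB4.3 moved the other way on that day. The gain was 3.0 in 35S:PAP1 plants and 1.2 in empty vector plants. Its mean was 9.3 on day 8, against 7.2 on day 7, a rise of 2.1 ± 0.41 (4.29-fold, limma adjusted p = 0.00893). Of all probe sets 11.3% were called higher and 12.5% lower on day 8. The falls of LHCB4.1 and LHCB4.2 kept their calls with any 1 array or any other day left out. The rise of LHCB4.3 was 1.575 without the 35S:PAP1 day 7 array (adjusted p = 0.0648) and 1.5 without the 35S:PAP1 day 8 array (adjusted p = 0.0705). On this step the root marker PYK10 gave -0.80 (adjusted p = 0.00648) and EXPA7 0.20 (adjusted p = 0.440). The part of these markers, and of the day 7 poly-A controls (3.95 and 3.8, against 6.9 to 7.5 elsewhere), in the day 8 results was not tested.

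From day 8 to day 12, within the cool bright regime, all 3 genes rose. LHCB4.2 gained 2.5 in 35S:PAP1 and 2.4 in empty vector plants, a rise of 2.45 ± 0.20 (5.46-fold, limma adjusted p = 0.000595). LHCB4.1 gained 1.0 and 1.1 in the same order of lines, a rise of 1.05 ± 0.12 (2.07-fold, adjusted p = 0.00168). LHCB4.3 gained 1.2 in 35S:PAP1 and 1.6 in empty vector plants, a rise of 1.4 ± 0.41 (2.64-fold, adjusted p = 0.0488).

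In this comparison 10.7% of all probe sets were called higher and 9.44% lower. The call of LHCB4.3 lay close to the threshold. It was lost with each array centred on its median (1.35, adjusted p = 0.0645), and without any array of days 1 or 2, either array of day 12 or the empty vector day 8 array. In these fits it ranged from 0.80 without the empty vector day 8 array (adjusted p = 0.344) to 1.75 without the empty vector day 12 array (adjusted p = 0.125).

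Day 12 against day 1 sets the cool bright regime beside the mild bright one. None of the 3 genes was called, in a comparison that called 2.8% of all probe sets (637 by limma, 4208 with an unadjusted p under 0.05). LHCB4.3 gave -0.20 (95% interval -1.15 to 0.75), LHCB4.2 -0.05 (-0.53 to 0.43) and LHCB4.1 -0.25 (-0.54 to 0.04). The interval of LHCB4.3 does not reach the size of its fall by day 2 or day 7.

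**Figure D2:**
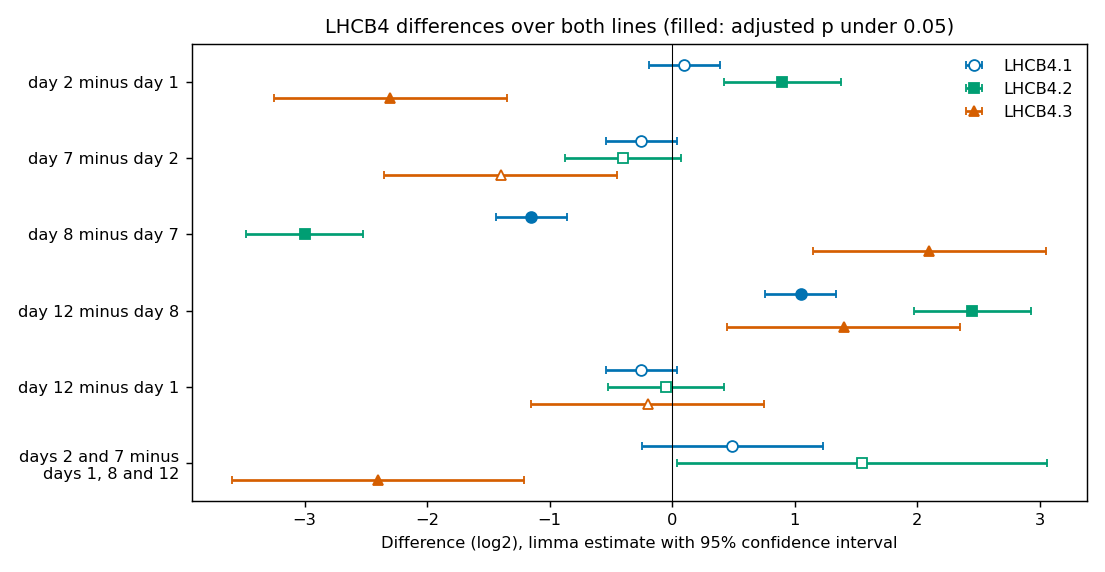
Differences between days over both lines and between warm dim and bright days (log2, limma estimate with 95% confidence interval) for LHCB4.1, LHCB4.2 and LHCB4.3, with filled symbols for an adjusted p under 0.05. LHCB4.3 lies opposite to LHCB4.2 on day 2 minus day 1 (-2.3 against 0.9) and day 8 minus day 7 (2.1 against -3.0), and on the same side on day 7 minus day 2 and day 12 minus day 8. The fit of warm dim against bright days has no day block, and LHCB4.3 was not called there with day as a random block.

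The opposite changes of LHCB4.3 and LHCB4.2 lay at the steps across a change of regime. The genes were chosen with these courses known, so the counts of steps given here are a description only. Other gene pairs were not counted. Of the 8 steps between successive days (4 in each line) the 2 genes moved in opposite directions in 4, the steps from day 1 to day 2 and from day 7 to day 8 in both lines. In the other 4 they moved in the same direction. LHCB4.1 and LHCB4.2 moved in the same direction in 8 of 8 steps, and LHCB4.1 and LHCB4.3 in 4 of 8. The day 1 to day 2 change of LHCB4.1 was 0.1 in both lines, the step of the deposited values. Its direction on that step is therefore not resolved, and the counts that include LHCB4.1 rest partly on it.

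Levels of different probe sets cannot be compared, but changes from each gene's own day 1 level can. The change of LHCB4.3 minus that of LHCB4.2 was -3.7, -4.6, 1.1 and -0.2 on days 2, 7, 8 and 12 in 35S:PAP1. In the empty vector it was -2.7, -3.8, 0.7 and -0.1. The balance between the genes thus lay far to the side of LHCB4.2 on the warm dim days, slightly to the side of LHCB4.3 on day 8, and within 0.2 of day 1 by day 12 in both lines. These differences are given as values only, with no test, because the genes were chosen with these courses known.

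**Figure D3:**
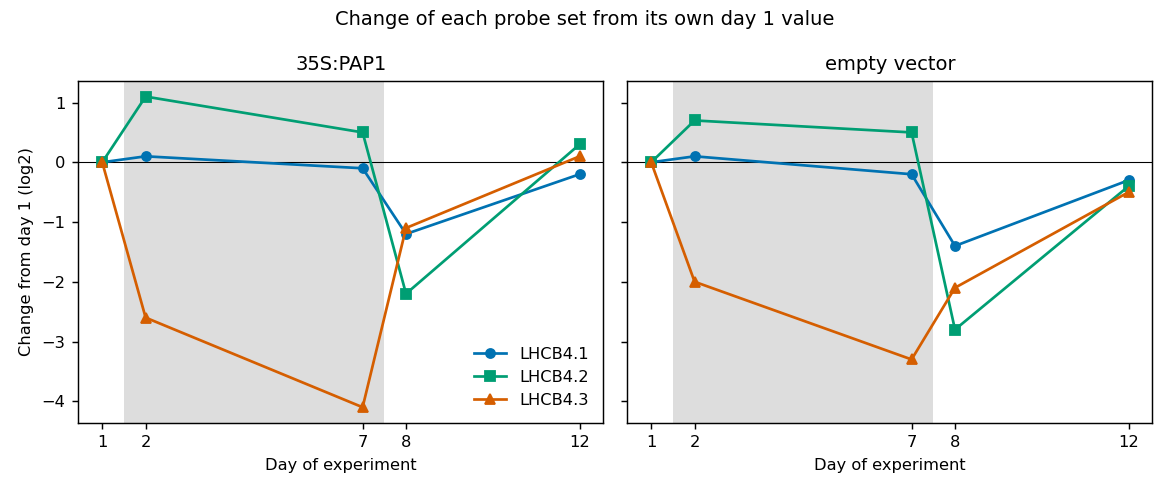
Change of LHCB4.1, LHCB4.2 and LHCB4.3 from their own day 1 value (log2, 1 array per point) against day, in 35S:PAP1 (left) and empty vector (right), with the days read as warm dim in grey. On day 7 LHCB4.3 stands at -4.1 in 35S:PAP1 and -3.3 in empty vector while LHCB4.2 stands at 0.5 in both.

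Across the 10 arrays LHCB4.1 and LHCB4.2 had a Pearson correlation of 0.955, LHCB4.2 and LHCB4.3 one of -0.18, and LHCB4.1 and LHCB4.3 one of -0.0045. These describe 10 arrays that share days and normalisation, and the first rests largely on the day 8 arrays, which are lowest for both genes.

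Warm dim days (2 and 7) were then set against bright days (1, 8 and 12) within each line, with days standing in for replicates. In 35S:PAP1 LHCB4.3 averaged 7.45 ± 1.06 on warm dim days (SD, n = 2) and 10.47 ± 0.67 on bright days (SD, n = 3). In the empty vector it averaged 8.35 ± 0.92 on warm dim days and 10.13 ± 1.1 on bright days, and the groups overlapped, since day 2 (9.0) read above day 8 (8.9). The difference was -3.02 ± 0.73 in 35S:PAP1 (SE, limma adjusted p = 0.135) and -1.78 ± 0.73 in empty vector plants (adjusted p = 0.239), neither of which passed. Without its day 7 array the empty vector gave -1.13 (adjusted p = 0.745). Of all probe sets 0.242% were called in 35S:PAP1 and 1.17% in empty vector plants.

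Over both lines LHCB4.3 was lower on warm dim days by -2.40 ± 0.52 (5.28-fold, limma adjusted p = 0.0277), in a comparison that called 4.44% of all probe sets lower. That fit took the arrays of both lines on a day as independent. With day as a random block, the replicate block of this design, the same difference had an adjusted p = 0.0569. The call was also lost in 10 of 15 fits that left out an array or a day, where the difference ranged from -3.10 (without day 2) to -1.70 (without day 7, whose arrays had the low poly-A controls).

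Each warm dim array of LHCB4.2 read above the bright arrays of its line. For 35S:PAP1 the lowest warm dim value was 12.4, against a highest bright value of 12.2. For the empty vector these values were 12.9 and 12.4. How many of all probe sets separate in this way, with 2 warm dim and 3 bright arrays per line, was not counted. The difference was 1.43 ± 0.93 for 35S:PAP1 (limma adjusted p = 0.516) and 1.67 ± 0.93 for empty vector plants (adjusted p = 0.393). Neither passed the test. Over both lines the difference was 1.55 ± 0.66 (adjusted p = 0.178). Without day 8 it was 0.725 (adjusted p = 0.0618), and that of LHCB4.1 was 0.10 in place of 0.49 (adjusted p = 0.723 and 0.385). For LHCB4.3 the difference without day 8 was -2.90 (adjusted p = 0.0190). The difference of LHCB4.1 and LHCB4.2 thus shrank without day 8, whereas that of LHCB4.3 grew.

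The lines were compared across all days. With day as a block, the 35S:PAP1 minus empty vector difference was 0.08 ± 0.08 for LHCB4.1 (SE, limma adjusted p = 0.835), -0.16 ± 0.13 for LHCB4.2 (adjusted p = 0.801) and -0.16 ± 0.26 for LHCB4.3 (adjusted p = 0.898). None of the 3 was called, in a comparison that called 0.0791% of all probe sets. The 95% intervals were -0.10 to 0.26, -0.46 to 0.14 and -0.76 to 0.44 in that order of genes.

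LHCB4.3 differed between the lines with a sign that changed between days. It read lower in 35S:PAP1 by -0.2, -0.8 and -1.0 on days 1, 2 and 7, and higher by 0.8 and 0.4 on days 8 and 12. With 1 array per line and day, the trough of LHCB4.3 read deeper in 35S:PAP1 than in the empty vector. The 35S:PAP1 array of day 2 and the arrays of day 7 stood apart in their controls, and their part here was not tested. LHCB4.2 differed by -0.5, -0.1, -0.5, 0.1 and 0.2 in day order, and LHCB4.1 by 0, 0, 0.1, 0.2 and 0.1.

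A test of whether the warm dim against bright difference itself differed between the lines gave -1.23 ± 0.30 for LHCB4.3 (SE, limma adjusted p = 0.461, unadjusted 95% interval -1.97 to -0.50). The mean difference between lines was -0.9 on warm dim days and 0.33 on bright days. It was -0.23 for LHCB4.2 (adjusted p = 0.815) and -0.05 for LHCB4.1 (adjusted p = 0.940). This test has 3 residual degrees of freedom. Limma called 0 of all probe sets (0%), with 2052 at an unadjusted p under 0.05, and the difference between lines in the course of LHCB4.3 did not pass over all probe sets.

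**Figure D4:**
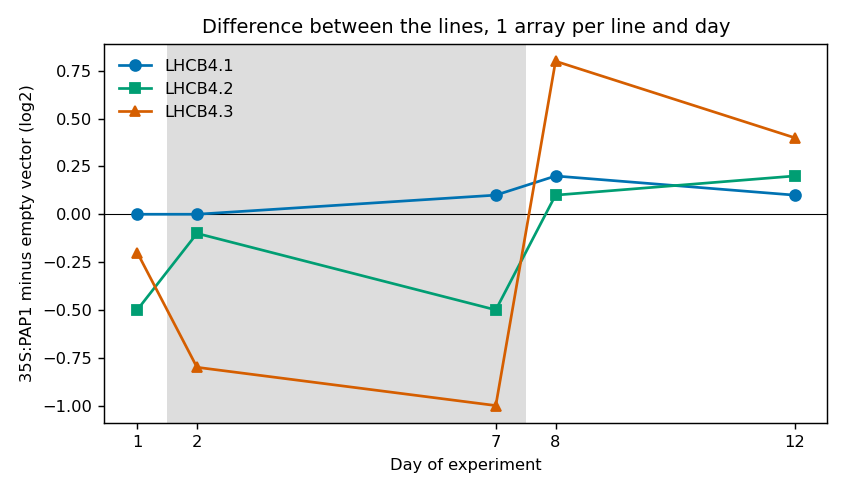
Difference of 35S:PAP1 minus empty vector (log2) for LHCB4.1, LHCB4.2 and LHCB4.3 on each day, 1 array per line and day, with the days read as warm dim in grey. LHCB4.3 stands at -0.8 and -1.0 on days 2 and 7 and at 0.8 on day 8, while LHCB4.1 stays between 0 and 0.2. The 35S:PAP1 array of day 2 and the arrays of day 7 stood apart in their controls.

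The other genes of the photosynthetic apparatus were sparsely covered by probe sets that name them alone. Of 18 further antenna genes 0 had one, so the CP29 genes were not set beside the major antenna or the other minor antenna proteins. Of the planned photosystem genes 3 of 14 photosystem II subunits and 2 of 12 photosystem I subunits had one. With 6 genes of chlorophyll synthesis and others of chlorophyll breakdown, photoprotection and light signalling, 15 genes were measured. These counts are too small to stand for their pathways.

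On day 8 against day 7, 5 of these 15 genes fell and 2 rose, where 12.5% of all probe sets were called lower and 11.3% higher, with a median difference of -0.35 beside 0.05 over all probe sets. Both photosystem I subunits fell, PSAN by 1.2 and PSAE1 by 0.85 on the log2 scale (limma adjusted p = 0.00319 and 0.00621). PORB, which reduces protochlorophyllide in the light, fell by 1.25 (adjusted p = 0.00501). CHLM, the magnesium protoporphyrin methyltransferase, fell by 0.9 (adjusted p = 0.0236), and HEMB1, an early enzyme of tetrapyrrole synthesis, by 0.55 (adjusted p = 0.0152). The photosystem II subunits PSBW, PSB27 and PSBY gave -0.45, -0.35 and -0.25 and did not pass. LHCB4.2, at -3.0, lay below the lowest of the 15 (-1.25), and LHCB4.1, at -1.15, within their range. This placing is a description only, because the LHCB4 genes were chosen with their courses known.

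The genes that rose on day 8 with LHCB4.3 were HYH, a bZIP factor of light signalling, by 3.30 (adjusted p = 0.000472), and GSA1, an aminotransferase early in tetrapyrrole synthesis, by 0.80 (adjusted p = 0.00424). On day 7 HYH read 3.6 in 35S:PAP1 and 3.4 in empty vector plants, near the level of the seed marker BAN (3.3 to 3.7). On day 8 it read 6.4 and 7.2 in the same order. GSA1 had also fallen on day 2, by 1.05 on the log2 scale (adjusted p = 0.00744), as had CHLI2, a magnesium chelatase subunit, by 1.05 (adjusted p = 0.0355), and HEME2, a uroporphyrinogen decarboxylase, by 0.85 (adjusted p = 0.0374). Of the 15 genes 0 rose and 3 fell on day 2, where 4.44% of all probe sets were called higher and 5.5% lower (median -0.15, beside -0.05 over all probe sets). LHCB4.3, at -2.3, lay below the lowest of them (-1.05) and LHCB4.2, at 0.9, above the highest (0.40). As on day 8, this is a description only, because the LHCB4 genes were chosen with their courses known. From day 8 to day 12, 6 of the 15 rose and 1, HYH, fell by 2.15 (adjusted p = 0.00222), with a median of 0.35 beside -0.05. Of all probe sets 10.7% were called higher and 9.44% lower on this step. PORB rose by 1.3 and PSAN by 0.9 (adjusted p = 0.00525 and 0.0120).

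**Figure D5:**
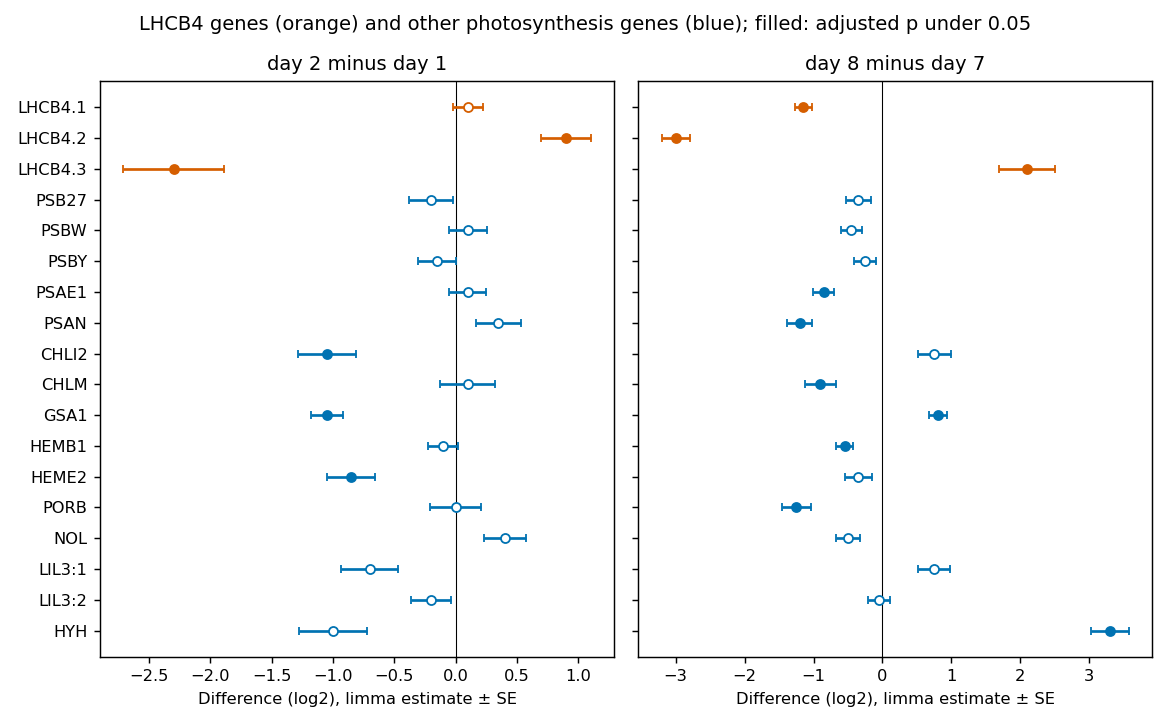
Differences on day 2 minus day 1 (left) and day 8 minus day 7 (right) for the LHCB4 genes (orange) and 15 other genes (blue). The 15 are genes of the photosystems, chlorophyll synthesis and breakdown, photoprotection and light signalling. Values are log2 limma estimates with SE, filled for an adjusted p under 0.05. LHCB4.3 and LHCB4.2 lie outside the range of the other genes on day 2, at -2.3 and 0.9, and LHCB4.2 does so on day 8, at -3.0. The LHCB4 genes were chosen with these courses known.

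Genes with the most similar course were ranked by Pearson correlation with each member over the 10 arrays, among genes with a range of at least 1 log2 unit. For LHCB4.2 they were UBA1A (0.994), AT3G03000 (0.988), AT1G51400 (0.987), AT2G22660 (0.983) and AT1G28580 (0.981). For LHCB4.1 they were CCL, a CCR-like gene (0.982), AT3G26100 (0.982), AT1G52220, a thylakoid curvature protein (0.976), AT3G51370 (0.976) and AT5G24490 (0.973). For LHCB4.3 they were AT1G78890 (0.969), AT1G66430 (0.949), AT1G33840 (0.948), AT2G16660 (0.944) and AT2G02590 (0.937). No gene was among the 5 of more than 1 member. AT3G03000 (3.9 to 5.8) and AT1G33840 (4.4 to 5.5) read near the level of the root marker PYK10 (4.1 to 5.1). UBA1A read 6.4 to 7.7, and a high correlation does not mean a change of like size. The correlations describe 10 arrays that share days, lines and normalisation, and carry no test.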

How the data were processed

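Per the labels' protocols, RNA of pooled frozen leaves was biotin-labelled for Affymetrix arrays. The authors deposited log2 values, 1 per probe set, made with RMA per the submitters' processing notes, which name no version or setting. RMA puts the arrays on 1 distribution and gives no detection call. All 10 sample columns were used (0 left out), and the number of arrays limits the precision.

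After removal of 64 control probe sets 22746 were tested. Genes were named from the platform's probe table. The limma package (3.58.1, under R 4.3.3) was used for all models, through lmFit and eBayes, with Benjamini-Hochberg adjustment over all probe sets and a threshold of 0.05. Day contrasts and the line effect came from a model of line and day (4 residual degrees of freedom), regime contrasts from means of line by regime (6), and the interaction from day, line and line by regime (3). The fits were run on simulated data with planted changes, and the median estimates came close to those changes. The simulation had a common spread for all probe sets and no day effects, so it does not gauge the p-values of these data. Nothing in the labels marks repeats of a line on 1 day. The p-values therefore reflect array-to-array spread, which may be technical and also holds unequal responses of the lines or days.

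Arrays of the lines are paired by the labelled day. Their deviations from the line means correlated at 0.525, 0.774, 0.488, 0.843 and 0.752 on days 1, 2, 7, 8 and 12. The 3 genes and the gene lists were chosen with earlier results of these data known. Named genes are the 3 members, list genes whose symbol and locus both matched (the probe set with the highest mean), and for each member the 5 genes with the highest correlation. Alternatives were median centring, a filter on dim probe sets (mean of at least 5), trend and robust eBayes, other blocks, and leaving out arrays or days. Promoter and protein sequences were not analysed here.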

Additional observations from a re-analysis of the deposited data

Results flagged for a closer look

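The day 8 arrays of LHCB4.1 stood far from the other days of their line. The level was 12.3 in 35S:PAP1 plants and 12.1 in empty vector plants, and the gap to the next array took 0.769 and 0.733 of the whole range of the 5 days (Dixon's critical value 0.71). These 5 arrays are different days and not repeats, and chance flags a share of about 0.05 of groups.

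The lines moved in opposite directions in 3 comparisons of days, each with 1 array per line and day, and the difference was not tested for any of them. From day 1 to day 12 LHCB4.2 gave 0.3 in 35S:PAP1 plants and -0.4 in empty vector plants, and LHCB4.3 gave 0.1 and -0.5 in the same order. From day 2 to day 8 LHCB4.3 gave 1.5 in 35S:PAP1 plants and -0.1 in empty vector plants, where a change of 0.1 is the step of the deposited values.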

How the results depend on the processing

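For 33 results (3 genes in 11 comparisons) 135 alternatives other than leaving out an array or day were computed. Of these 126 kept direction and side of the threshold, 8 lost a call and 1 changed direction. Most of the 33 results were uncalled in the main fit, where staying uncalled counts as kept. The 126 therefore does not measure how stable the calls were. With the 35S:PAP1 arrays of days 2 and 7 left out, LHCB4.2 gave 0.92 on day 2 minus day 1 and LHCB4.3 gave -1.73 on day 2 minus day 1, -3.03 on day 7 minus day 1, 1.43 on day 8 minus day 7 and 1.4 on day 12 minus day 8, none of them past the threshold, in a fit with fewer arrays. There the line effect of LHCB4.3 turned to 0.33. For LHCB4.3 on day 12 minus day 8, median centring gave 1.35 and trend and robust settings 1.4, both uncalled. With day as a replicate block its warm dim minus bright difference over both lines was -2.40, uncalled (adjusted p = 0.0569), and the block, or for the line effect no block, changed no other call. The causes were not tested.

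Leaving out 1 array or 1 day moved LHCB4.2 on day 2 minus day 1 between 0.69 and 1.11, and LHCB4.3 on day 2 minus day 1 between -2.70 and -1.90, on day 7 minus day 1 between -4.22 and -3.17, on day 8 minus day 7 between 1.5 and 2.70, on day 12 minus day 8 between 0.80 and 2.0, and on warm dim minus bright days over both lines between -3.10 and -1.70. Day 12 minus day 1 ranged from -0.275 to 0.175 for LHCB4.2, positive without the empty vector arrays of day 1 (0.1625) or day 12 (0.175), and from -0.55 to 0.15 for LHCB4.3, positive without the empty vector day 12 array. The line effect of LHCB4.3 ranged from -0.40 to 0.05, positive without an array of day 7. A fit across lines that leaves 1 array on a day assumes that it varies like the others.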
